A study of Mus musculus with 6 samples.

Results

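The genes described here are the 5 subunits of the transcription factor NF-kB (Nfkb1, Nfkb2, Rel, Rela and Relb) and 5 genes of its feedback (Nfkbia, Nfkbid, Nfkbiz, Tnfaip3 and Bcl3), 10 of the 55394 genes in the expression tables. They were taken by gene name from the tables of 6 SMART-seq libraries. Each library was made from 1000 sorted lung group 2 innate lymphoid cells (ILC2s) of wild-type neonatal C57BL/6 mice. The Abx group comprised 3 libraries from pups of dams that drank a cocktail of ampicillin, metronidazole, neomycin and vancomycin on gestation days 10 to 14, and the Con group comprised 3 libraries from pups of dams without antibiotics. ILC2s were gated as CD45+ cells that lacked lineage markers and carried CD90.2 and CD25. The sources do not say whether the 3 libraries of a group came from separate litters, so p-values measure the spread between these libraries only. Neither the age nor the sex of the pups is given per library.

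NF-kB acts as pairs of Rel-family proteins. In resting cells inhibitors of the IkB family hold these pairs in the cytoplasm, and signals from receptors such as that for IL-33 activate the IKK kinase, which marks IkB for degradation and frees NF-kB to enter the nucleus. NF-kB then induces its own brakes, among them the inhibitor IkB-alpha and the ubiquitin-editing enzyme A20, and in ILC2s the pathway contributes to activation and cytokine production.

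In these data no member passed the call rule, a fold change over 2 with an adjusted p under 0.05. Nfkbiz, Rela and the values that can be read for Nfkb2, Rel and Nfkbia from a shifted block of lines lay lower in every Abx library than in any Con library, while Nfkb1, Relb, Nfkbid and Bcl3 overlapped between the groups. On its own line Nfkbia instead lay higher in every Abx library. Of all genes tested 8.73% lay lower without overlap and 8.49% higher. The order of the lines in the tables follows the difference between the groups, as set out below. For 4 members the direction or the level depends on which line of the tables is read, which has to be set out first.

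The 6 tables list their genes in the same order. On lines 495 to 882, a stretch of 388 lines, the gene names and the values stand apart. The mean level of a gene was predicted from its annotation alone (biotype, exon and transcript numbers, lengths and promoter CpG number) and compared with the values. The start of the stretch was itself chosen by this prediction, as the run of lines that the values on the line above matched best. Its last line was set at the repeated values given below. The r values and windows within the stretch were therefore favoured by the choice of its lines. In the stretch Pearson's r across genes, which are not independent replicates, was -0.026 between the prediction and the values on the same line and 0.496 with the values on the line above. On the other 11003 lines compared it was 0.487 on the same line and 0.010 with the line above. In windows of 100 lines, the line above gave the highest r in 3 of 3 windows within the stretch, and the same line gave it in 107 of 108 windows outside. The last line of the stretch, Cflar, and the next line, Pcna, carry the same values in all 6 libraries (97.53, 119.60 and 118.66 FPKM in Con, 193.23, 227.83 and 256.85 FPKM in Abx). This was the 1 pair of neighbouring lines with equal values above 0 in every library. Il1rl1, the gene of the IL-33 receptor and a defining ILC2 gene, is named in the stretch. It was at 0.06, 0.89 and 2.94 FPKM in Con, compared with 0.03, 0.01 and 0.03 FPKM in Abx on its own line, and at 83.7, 50.4 and 90.8 FPKM in Con, compared with 28.8, 33.9 and 44.4 FPKM in Abx on the line above.

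**Figure D1:**
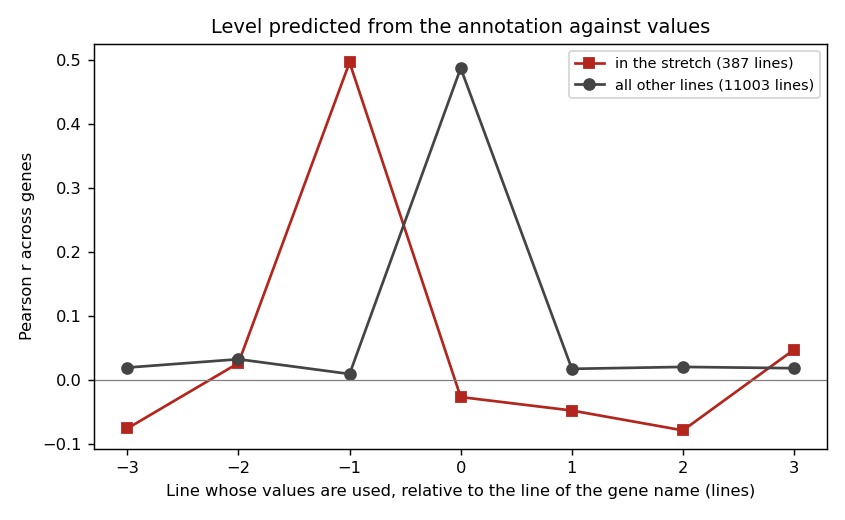
Pearson's r across genes between the level predicted from the annotation and the measured mean level (vertical axis), by the line whose values are used, counted in lines from the line of the gene name (horizontal axis). The 387 lines compared in the stretch peak at the line above (r = 0.496), and the other 11003 lines peak at the line of the name (r = 0.487). The start of the stretch was chosen with the same prediction.

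Nfkb2 (line 654), Rel (line 672), Nfkbia (line 566) and Tnfaip3 (line 518) lie in the stretch. Nfkb1, Rela, Relb, Nfkbid, Nfkbiz and Bcl3 lie outside it. For the 4 genes both values are given below, as the value on the own line and the value on the line above. The reading of the line above was added after the data had been seen. The order of the lines also follows the difference between the groups. Of the lines tested in the stretch 96.7% had an unadjusted p under 0.05, so a small p on either line of these 4 genes comes with their place and tells nothing about which line is theirs. The share was 98.3% before the stretch, where Nfkbiz stands on line 26, and 73.9% in the next 388 lines, where Rela stands on line 1005. Over all lines after the stretch it was 7.01%.

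Values are FPKM, fragments per length of transcript and depth of library, so levels can be compared between genes. Total FPKM ranged from 420941 to 489262 per library, and the number of reads behind a value is unknown. Between 8574 and 9203 genes reached 1 FPKM in the Con libraries and between 7074 and 8193 in the Abx libraries. A listed 0 can be a failed estimate, and such genes are given by library. The groups also differed in markers that the exposure does not define. Xist, expressed from the inactive X chromosome, was at 3.78 to 5.09 FPKM in Con and listed at 0 in the 3 Abx libraries, and the Y-linked Eif2s3y was at 0.03 to 0.86 FPKM in Con and 11.9 to 24.4 FPKM in Abx. Exposure and pup sex cannot be told apart in these libraries.

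The ILC2 label was checked on 13 markers, read on their own lines. Of these, 12 reached 1 FPKM in at least 3 libraries, and their sum was 2857 to 3262 FPKM in Con and 2165 to 2747 FPKM in Abx. The exception was Il1rl1, which reached it on the line above. The separation of these sums rested on Areg, at 657, 783 and 780 FPKM in Con, compared with 393, 278 and 197 FPKM in Abx. Arg1, Icos and Il1rl1 were also lower in every Abx library, and Ptprc was higher in every one. The other markers of this list, Gata3, Rora and Id2 among them, overlapped between the groups. Of 6 B cell markers 5 reached 1 FPKM in at least 3 libraries, with sums of 255 to 294 FPKM in Con and 539 to 596 FPKM in Abx. Of 7 T cell markers 5 did so, with sums of 125 to 151 FPKM in Con and 271 to 312 FPKM in Abx. Of 5 NK cell markers only Gzma did so, and the sums, which rest on it, were 0 to 21.7 FPKM in Con and 215 to 224 FPKM in Abx, while Klrb1c, Prf1 and Eomes stayed under 1 FPKM in every library. B and T cells also express NF-kB genes, and the part of these cells in the values below was not tested. Markers of mast cells and basophils, given at the end, summed to 328 to 434 FPKM in Con and 185 to 295 FPKM in Abx. The part of those cells was not tested either. In such pooled samples fewer cells of a type and less RNA per cell cannot be told apart.

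The sequence before the start of a gene bears on these genes because NF-kB binds the kB consensus, a 10-base motif, and drives part of its own subunits and brakes. RefSeq promoters (GRCm38.p6) were at hand for 7 of the 10 members, with 12 starts: Bcl3, Nfkb2, Nfkbia, Nfkbid, Rel, Rela and Tnfaip3. In the 250 bases before a start, searched on both strands, 7 of these 12 starts and 5 of the 7 genes (Nfkb2, Nfkbia, Nfkbid, Rel and Tnfaip3) held the kB consensus, and 7.25% of all 32851 promoters did. The windows of 2 genes are shown, for the best-known inhibitor and for a subunit, because each ends at the gene model and holds a match, which is in capitals. The first lies at chr12:55492648-55492897, minus strand, and the second at chr11:23770971-23771219, minus strand. Both are written 5′ to 3′ towards the start.
Nfkbia: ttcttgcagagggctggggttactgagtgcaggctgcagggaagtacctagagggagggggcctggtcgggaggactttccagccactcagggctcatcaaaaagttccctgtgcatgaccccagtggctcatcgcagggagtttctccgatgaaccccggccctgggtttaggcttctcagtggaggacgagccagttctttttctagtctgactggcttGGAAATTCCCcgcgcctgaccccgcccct
Rel: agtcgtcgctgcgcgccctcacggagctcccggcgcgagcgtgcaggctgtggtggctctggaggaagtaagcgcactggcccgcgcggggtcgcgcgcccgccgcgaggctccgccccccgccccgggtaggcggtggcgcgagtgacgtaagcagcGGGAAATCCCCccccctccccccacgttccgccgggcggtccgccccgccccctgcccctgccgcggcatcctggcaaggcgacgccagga
The match of Nfkbia begins 29 bases before the start. In Rel, 2 overlapping matches begin 92 and 91 bases before it. These distances count 1 last base that lies inside the gene model and is left out of the 249 bases shown. A match is a run of letters and not a measured binding site.

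Among the subunits, Rela encodes p65, the subunit with the strongest activation domain in the classical pathway. Rela (ENSMUSG00000024927, chromosome 19 from 5637483 to 5648130, plus strand, GRCm38) had 57.7, 59.9 and 44.1 FPKM in libraries 1, 2 and 3 of Con. In libraries 1, 2 and 3 of Abx it had 0.30, 29.3 and 14.0 FPKM, and values below keep this order of libraries. Every Abx library lay below every Con library, and Abx library 1 lay far below the other two Abx libraries. The Con mean was 53.9 ± 8.59 FPKM (SD, n = 3) and the Abx mean 14.5 ± 14.5 FPKM (SD, n = 3), a log2 fold change of FPKM + 1 of -2.70 (standard error, SE, 1.07, limma adjusted p = 0.396). Without Abx library 1 it was -1.35. The exact permutation test gave p = 0.1, the smallest p that 3 libraries against 3 allow.

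Nfkb1, whose product p105 is processed to p50, the usual partner of p65, overlapped between the groups. Nfkb1 (ENSMUSG00000028163, chromosome 3 from 135584655 to 135691547, minus strand) was at 25.0, 36.6 and 30.7 FPKM in Con, compared with 23.8, 15.9 and 26.2 FPKM in Abx. Con library 1 lay below Abx library 3. Its log2 fold change was -0.48 (SE 0.39, limma adjusted p = 0.719; exact permutation test, p = 0.2).

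Relb encodes the activating subunit of the alternative pathway. Relb (ENSMUSG00000002983, chromosome 7 from 19606217 to 19629438, minus strand) was at 9.84, 33.5 and 19.7 FPKM in Con, compared with 11.2, 0.08 and 25.0 FPKM in Abx. The groups overlapped, and only Abx library 2 lay outside the Con range. The log2 fold change of -1.50 (SE 1.17, limma adjusted p = 0.713) was -0.15 without that library.

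Nfkb2 encodes p100, the precursor of p52 and an inhibitor of RelB complexes. On its own line Nfkb2 (ENSMUSG00000025225, chromosome 19 from 46304320 to 46312385, plus strand) was at 7.81, 5.90 and 0.07 FPKM in Con, compared with 0.15, 0.06 and 0.04 FPKM in Abx, which did not pass the filter of 1 FPKM in at least 3 libraries. The groups overlapped through Con library 3 (exact permutation test, p = 0.2). On the line above, which carries the name Ffar2, the values were 10.9, 24.4 and 22.9 FPKM in Con, compared with 3.61, 3.21 and 3.64 FPKM in Abx. There the 3 Abx libraries lay close together and below every Con library, with a log2 fold change of -2.11 (SE 0.62, limma adjusted p = 0.20).

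Rel encodes c-Rel, a lymphoid subunit. On its own line Rel (ENSMUSG00000020275, chromosome 11 from 23736847 to 23770970, minus strand) was at 0.02, 0 and 0 FPKM in Con, compared with 12.8, 0 and 0.30 FPKM in Abx, and only Abx library 1 showed it above 1 FPKM. On the line above, which carries the name Ctse, it was 21.8, 26.9 and 13.4 FPKM in Con, compared with 9.41, 6.51 and 5.06 FPKM in Abx. On that line every Abx library lay below every Con library (log2 fold change -1.42, SE 0.55, limma adjusted p = 0.373).

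**Figure D2:**
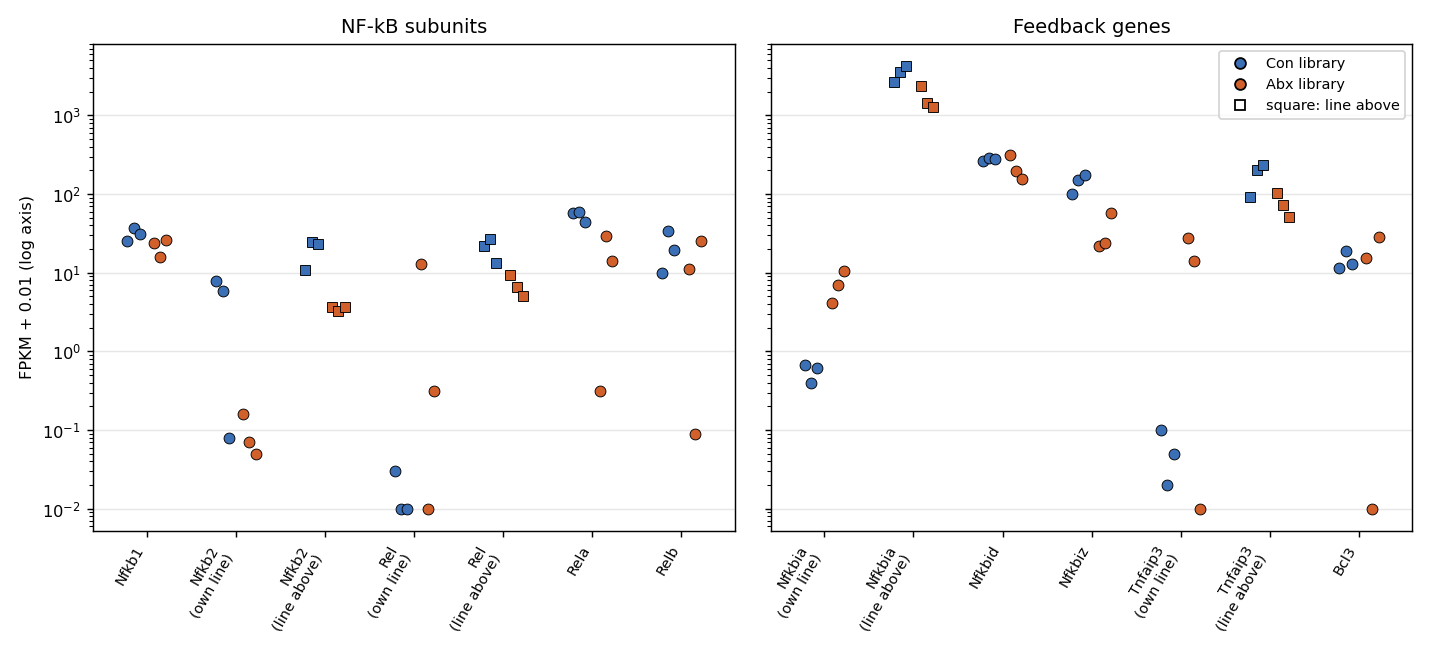
FPKM + 0.01 of the 10 members on a log axis, 1 point per library (blue, Con; orange, Abx), with subunits on the left and feedback genes on the right. Circles are values on the line of the gene name and squares are values on the line above, drawn for the 4 genes of the stretch. Rela and Nfkbiz show no overlap between the groups, and the circles and squares of Nfkbia move in opposite directions.

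Among the feedback genes was the member with the lowest adjusted p of the 10. Nfkbiz encodes IkB-zeta, a nuclear protein that NF-kB induces and that helps to switch on secondary genes. Nfkbiz (ENSMUSG00000035356, chromosome 16 from 55811375 to 55838899, minus strand) was at 100.3, 151 and 176 FPKM in Con, compared with 22.2, 23.8 and 57.8 FPKM in Abx. The highest Abx library lay below the lowest Con library. The Con mean was 142 ± 38.5 FPKM (SD, n = 3) and the Abx mean 34.6 ± 20.1 FPKM (SD, n = 3), 4.12 times higher in Con. The log2 fold change was -2.11 (SE 0.43), with a limma adjusted p of 0.0967 and an exact permutation p of 0.1.

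Nfkbia encodes IkB-alpha, the main cytoplasmic inhibitor and the classical product of the feedback. Its 2 readings disagreed in level and in direction. On its own line Nfkbia (ENSMUSG00000021025, chromosome 12 from 55489410 to 55492647, minus strand) was at 0.67, 0.39 and 0.61 FPKM in Con, compared with 4.14, 6.89 and 10.4 FPKM in Abx. Every Abx library lay above every Con library, with a log2 fold change of 2.32 (SE 0.64, limma adjusted p = 0.181). This line passed the filter only through the 3 Abx libraries, so its direction comes with the filter. On the line above, which carries the name Dhrs1, the values were 2674, 3552 and 4227 FPKM in Con, compared with 2357, 1454 and 1261 FPKM in Abx. On that line every Abx library lay below every Con library, with a Con mean of 3484 ± 779 FPKM (SD, n = 3) and an Abx mean of 1691 ± 585 FPKM (SD, n = 3), 2.06 times higher in Con. The log2 fold change was -1.07 (SE 0.28, limma adjusted p = 0.157).

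Tnfaip3 encodes A20, which removes and remodels ubiquitin chains upstream of IKK. On its own line Tnfaip3 (ENSMUSG00000019850, chromosome 10 from 19000910 to 19015657, minus strand) was at 0.09, 0.01 and 0.04 FPKM in Con, compared with 27.3, 14.1 and 0 FPKM in Abx. It was thus above 1 FPKM in Abx libraries 1 and 2 and in no Con library, and it did not pass the filter (exact permutation test, p = 0.4). On the line above, which carries the name Gm42922, the values were 91.9, 203 and 232 FPKM in Con, compared with 104, 72.8 and 50.9 FPKM in Abx. There Con library 1 lay within the Abx range, so the groups overlapped, and the log2 fold change was -1.15 (SE 0.42, limma adjusted p = 0.341).

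Nfkbid encodes IkB-NS, another nuclear regulator of the IkB family. Nfkbid (ENSMUSG00000036931, chromosome 7 from 30421732 to 30428746, plus strand) was at 267, 285 and 278 FPKM in Con, compared with 314, 197 and 157 FPKM in Abx. The Con libraries lay within a narrow band, and the Abx libraries lay on both sides of it (log2 fold change -0.37, SE 0.28, limma adjusted p = 0.702). Bcl3 encodes a nuclear IkB protein that works with p50 and p52. Bcl3 (ENSMUSG00000053175, chromosome 7 from 19808462 to 19822770, minus strand) was at 11.4, 18.9 and 13.0 FPKM in Con, compared with 15.4, 0 and 28.3 FPKM in Abx. The 0 in Abx library 2 set its log2 fold change of -0.95 (SE 1.22, limma adjusted p = 0.841), which was 0.53 without that library.

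**Figure D3:**
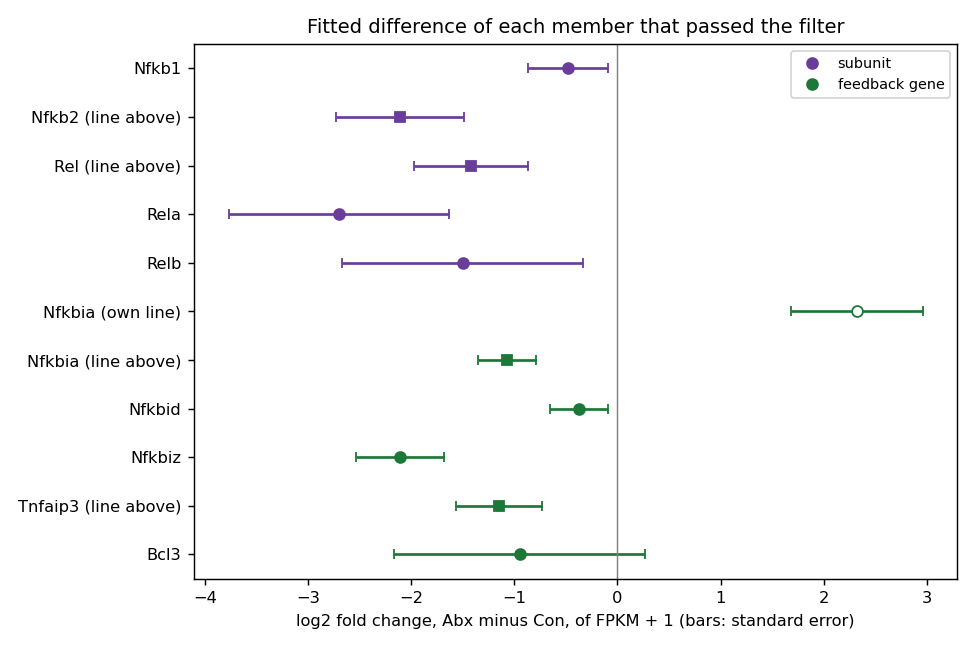
Log2 fold change (Abx minus Con, FPKM + 1) of each member that passed the filter, with bars of 1 standard error (SE) from the limma fit (purple, subunits; green, feedback genes; squares, values on the line above; open circle, own line of a gene in the stretch). Nfkbia lies at 2.32 on its own line and at -1.07 on the line above.

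Over the members together, 7 of the 10 passed the filter on their own lines. Of these, 0 passed the call rule in the limma fit, where 0.0574% of the 8718 genes tested did. At an unadjusted p under 0.05, 2 members were lower (Rela and Nfkbiz) and 1 was higher (Nfkbia), against 6.25% of all genes tested lower and 4.74% higher. Nfkbia was tested only because its Abx values passed the filter, and with a filter at a mean of 5 FPKM it was not tested and the counts were 2 lower and 0 higher. The 2 lower members became 1 (Nfkbiz) without any one Con library and 3 (with Nfkbid) without Abx library 1. The groups did not overlap in the same 2 lower members and in Nfkbia, against 8.73% of all genes lower and 8.49% higher. With the line above for the genes of the stretch all 10 passed the filter, and again 0 passed the call rule. All 10 then had a log2 fold change below 0, where 53.0% of the genes tested did. At an unadjusted p under 0.05, 6 were lower (Nfkb2, Rel, Rela, Nfkbia, Nfkbiz and Tnfaip3) and 0 higher. In 5 of these the groups did not overlap, the exception being Tnfaip3. That count of 6 was 2 (Nfkbia and Nfkbiz) without Con library 2 and 4 to 7 without any other library. The members that stand in the stretch share its order by difference, as given above.

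The median log2 fold change of the subunits that passed the filter on their own lines (Nfkb1, Rela and Relb) was -1.50, against -0.06 over all genes tested, and it was -0.27 without Abx library 2 and -2.45 without Abx library 3. With the line above it was also -1.50 over 5 subunits and -1.22 to -2.13 with any library left out. For the feedback genes the median was -0.66 on their own lines, over 4 genes, and it was 0.11 without Abx library 2, -1.07 without Abx library 1 and -1.03 without Abx library 3. These 4 genes include Nfkbia (2.32), which passed the filter only through its Abx libraries, and leave out Tnfaip3, which did not pass. The line above gave -1.07 over 5 genes, and -0.90 to -1.41 with any library left out.

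Within libraries, the levels of the feedback genes were set against the mean of the 5 subunits on the log2 scale of FPKM + 1. With the line above the Con libraries had that mean at 4.42, 5.15 and 4.66, and the Abx libraries at 2.84, 2.82 and 3.64. Nfkbia exceeded it by 6.97, 6.65 and 7.39 in Con and by 8.36, 7.69 and 6.66 in Abx. Nfkbiz exceeded it by 2.24, 2.10 and 2.81 in Con and by 1.69, 1.81 and 2.24 in Abx. Both differences overlapped between the groups, as did those of Tnfaip3 and Bcl3. Nfkbid exceeded the mean by 3.65, 3.01 and 3.47 in Con and by 5.46, 4.81 and 3.67 in Abx, with no overlap, though Con library 1 and Abx library 3 nearly met. On the own lines the picture changed. Nfkbid then exceeded the mean by 4.63, 4.35 and 5.14 in Con and by 5.78, 5.79 and 4.54 in Abx, with overlap. Nfkbiz then exceeded the mean by 3.23, 3.44 and 4.47 in Con and by 2.01, 2.79 and 3.12 in Abx, without overlap. Nfkbia differed from it by -2.70, -3.34 and -2.30 in Con and by -0.16, 1.14 and 0.74 in Abx, also without overlap. Tnfaip3 differed from it by -3.31, -3.80 and -2.93 in Con and by 2.30, 2.08 and -2.76 in Abx, again without overlap, though library 3 of both groups nearly met. Both genes stand in the stretch, and their Con values on the own lines were all under 1 FPKM. The own-line mean also holds the low values of Rel and Nfkb2. These differences were not tested. The low values of Rela in Abx library 1 and of Relb in Abx library 2 enter the mean of the subunits in those libraries.

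The order of the levels also rested on the reading. With the line above, the Con medians ran from Nfkbia (3552 FPKM) over Nfkbid (278 FPKM), Tnfaip3 (203 FPKM), Nfkbiz (151 FPKM), Rela (57.7 FPKM), Nfkb1 (30.7 FPKM), Nfkb2 (22.9 FPKM), Rel (21.8 FPKM) and Relb (19.7 FPKM) to Bcl3 (13.0 FPKM). The libraries of Tnfaip3 and Nfkbiz overlapped, as did those of Nfkb2, Rel, Relb and Bcl3, and Rel and Relb also overlapped Nfkb1, so their order is not fixed by these data. On the own lines Nfkbid was the highest member in both groups and Rel the lowest in Con. In the Abx libraries, with the line above, Nfkbia and Nfkbid still led with medians of 1454 and 197 FPKM, and Nfkb2 was lowest with 3.61 FPKM.

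Genes with a profile like the mean of the feedback genes over the 6 libraries were ranked by Pearson's r among 5908 genes with a mean of at least 5 FPKM. With the line above, the nearest were Letmd1 (r = 0.985), Bbs9, Spry2, Flii, Smarca5, Chn2, Fam110a, Eif3f, Pxk and Ccrl2 (r = 0.965). Spry2, an inhibitor of receptor tyrosine kinase signaling, was at 99.96, 125 and 115 FPKM in Con, compared with 63.4, 36.1 and 70.8 FPKM in Abx. On the own lines the nearest were instead Trav12-1 (r = 0.990), Trav12-2, Lef1, Hsp90ab1, Gm4366, Trav7-5, Tfpt, Scd1, Rpl7a and Trbv5 (r = 0.959). These include T cell receptor segments, and Trbv5 was at 1.79, 1.66 and 2.25 FPKM in Con, compared with 102, 1.46 and 26.9 FPKM in Abx. The 6 libraries share their 2 groups, so these values of r only describe profiles.

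The other genes of the pathway were read from lists of inhibitors, kinases and adaptors, receptors and ligands, and reported targets. In the limma fit no gene of these lists passed the call rule on either reading. Of 18 other inhibitors and brakes 12 were tested, with 9 lower, 3 higher and a median log2 fold change of -0.49, which was -0.27 without Abx library 1 and -0.08 with the filter at a mean of 5 FPKM. None had an unadjusted p under 0.05. Nfkbie, which encodes IkB-epsilon, was at 34.7, 18.6 and 22.0 FPKM in Con, compared with 11.9, 12.7 and 0.07 FPKM in Abx. Its Abx libraries all lay below Con (log2 fold change -2.14, limma adjusted p = 0.509). Nfkbib, which encodes IkB-beta, was at 92.1, 76.2 and 76.0 FPKM in Con, compared with 113, 63.0 and 63.8 FPKM in Abx, on both sides of Con.

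Of 29 genes of the IKK complex and its upstream kinases and adaptors 26 were tested, with 19 lower, 7 higher and a median of -0.64. That median was -0.18 without Abx library 1, -0.19 with the filter at a mean of 5 FPKM and -0.29 with quantile normalization. At an unadjusted p under 0.05, 1 was lower, against 6.25% of all genes tested. This was Ikbke, an IKK-related kinase, at 6.03, 1.87 and 5.84 FPKM in Con, compared with 0.04, 0.02 and 0 FPKM in Abx (limma adjusted p = 0.126). It passed the filter only through the Con libraries. Of the IKK subunits, Ikbkb (IKK-beta) was at 3.48, 5.64 and 7.87 FPKM in Con, compared with 0.45, 5.28 and 6.21 FPKM in Abx, and Chuk (IKK-alpha) was at 18.3, 0.97 and 3.45 FPKM in Con, compared with 13.7, 7.94 and 2.67 FPKM in Abx. Both overlapped between the groups. Ikbkg, the regulatory subunit NEMO, is named in the stretch and is the other gene of this list at that level. It was at 0, 0.01 and 0.03 FPKM in Con, compared with 0.68, 5.07 and 0.05 FPKM in Abx on its own line, where it was not tested, and at 4.04, 1.36 and 2.22 FPKM in Con, compared with 0.07, 0 and 0.01 FPKM in Abx on the line above, which also passed only through Con.

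Of 30 receptors and ligands 14 were tested, with 10 lower, 4 higher and a median of -0.36, which was -0.01 without a filter. At an unadjusted p under 0.05, 1 was lower and 0 higher, against 6.25% and 4.74% of all genes tested. This was the cytokine Il1b, at 7.91, 19.1 and 21.6 FPKM in Con, compared with 0.17, 9.23 and 0.08 FPKM in Abx (log2 fold change -2.76, limma adjusted p = 0.365). The groups overlapped through Abx library 2. The values of Il1rl1 on the line above gave a second, with a log2 fold change of -1.03 (limma adjusted p = 0.286). Il1rl1 stands in the stretch, where 96.7% of the lines tested reached that p. Tnf was at 89.5, 85.1 and 51.7 FPKM in Con, compared with 97.1, 58.2 and 29.0 FPKM in Abx, which overlapped.

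Of 34 reported NF-kB targets 25 were tested on their own lines, with 18 lower, 7 higher and a median of -0.41. At an unadjusted p under 0.05, 8 were lower and 2 higher, against 6.25% of all genes tested lower and 4.74% higher. Ier3 among the lower genes and Cflar among the higher genes stand in the stretch. The line above gave 10 and 3 of 28, and the genes so added stand in the stretch too, where 96.7% of the lines tested reached that p. The lower genes with the largest log2 fold changes on their own lines were the chemokines Ccl3 (-4.64) and Ccl4 (-3.79), the prostaglandin synthase Ptgs2 (-3.30), the cytokine Csf2 (-1.21) and the chemokine Cxcl2 (-1.07). Csf2 was at 3512, 3242 and 4259 FPKM in Con, compared with 1344, 2072 and 1401 FPKM in Abx (limma adjusted p = 0.0911), and Cxcl2 was at 1286, 1068 and 2048 FPKM in Con, compared with 744, 666 and 613 FPKM in Abx (limma adjusted p = 0.130). In both, every Abx library lay below every Con library. Ccl3 was at 266, 100.5 and 224 FPKM in Con, compared with 0.92, 0.58 and 128 FPKM in Abx, and Abx library 3 lay within the Con range. The higher genes were the chemokine Ccl5, at 74.7, 52.5 and 45.3 FPKM in Con, compared with 128, 98.9 and 116 FPKM in Abx, and Cflar, an inhibitor of caspase 8 whose line repeats the values of Pcna.

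**Figure D4:**
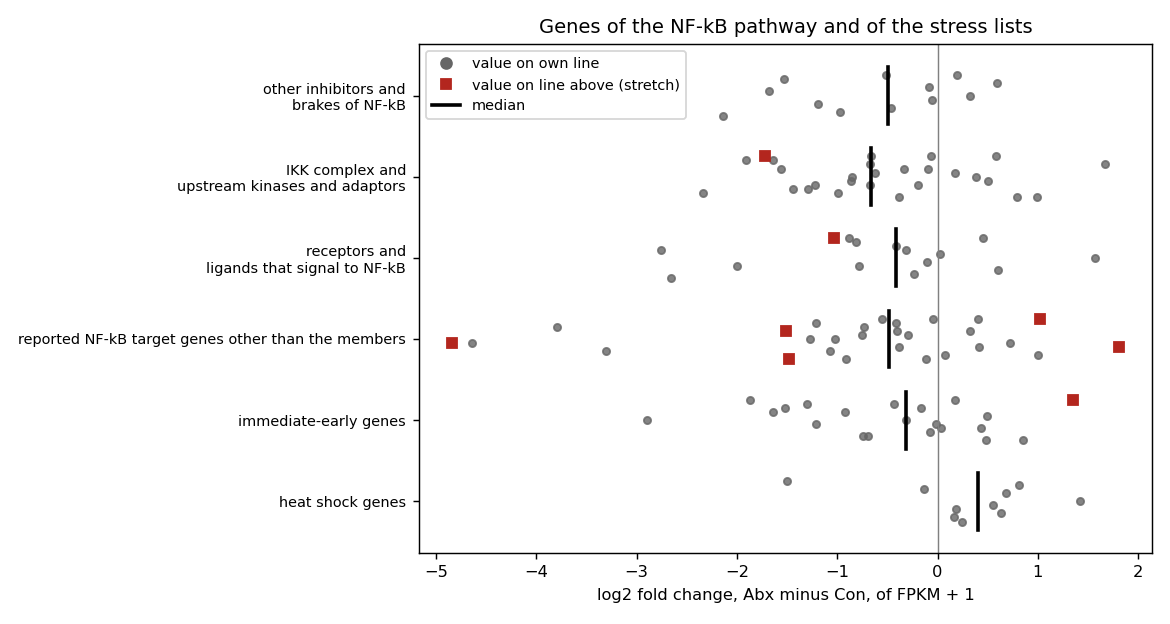
Log2 fold change (Abx minus Con, FPKM + 1) of the tested genes of each list, 1 point per gene (grey circles, value on the own line; red squares, value on the line above for genes of the stretch; black bars, median with the line above). The medians of the 4 NF-kB lists and of the immediate-early genes lie below 0, and that of the heat shock genes lies at 0.40.

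The immediate-early genes, which cells also induce on handling and activation, were given beside these because they share signals with NF-kB. Of 22 genes 20 were tested on their own lines, with 14 lower, 6 higher and a median of -0.37, which was -0.77 without Abx library 1, -0.13 without Abx library 2, -0.62 without Con library 1 and -0.08 without Con library 3. At an unadjusted p under 0.05, 4 were lower (Fosl1, Atf3, Nr4a2 and Nr4a1) and 0 higher, against 6.25% and 4.74% of all genes tested. On the line above 1 of 21 was higher (Egr1, log2 fold change 1.35). Atf3, a stress-induced factor, was at 210, 341 and 488 FPKM in Con, compared with 66.3, 89.8 and 118 FPKM in Abx. Nr4a1, an orphan nuclear receptor, was at 712, 612 and 652 FPKM in Con, compared with 219, 246 and 426 FPKM in Abx. Both were lower in every Abx library. The early gene Fos overlapped between the groups, with a Con mean of 2777 ± 1303 FPKM (SD, n = 3) and an Abx mean of 2622 ± 1499.9 FPKM (SD, n = 3). Of the 10 heat shock genes all were tested, with 2 lower, 8 higher and a median of 0.40, which was 0.13 without Abx library 1 and 0.21 without Con library 1. Of these, 3 were higher at an unadjusted p under 0.05 (Hspd1, Hspe1 and Hsp90aa1), against 4.74% of all genes tested. The 1 lower gene was Dnaja1, against 6.25%. The part of sample handling in the NF-kB values was not tested.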

How the data were processed

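The deposited values are FPKM per gene, which the authors made by trimming reads with Cutadapt, mapping them with HISAT2 and assembling them with StringTie. Their methods name a human Ensembl annotation, while the identifiers are mouse, and 55134 of 55394 are in GENCODE M21 (GRCm38), from which positions were taken. The submitters' processing notes name Bowtie 0.12.2 and the builds mm8 and mm9. Low values were not steps of whole reads, so read counts were not recovered and no counting error is given.

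The 8718 genes that reached 1 FPKM in 3 or more libraries were tested on log2(FPKM + 1) with limma 3.58.1 in R 4.3.3 (lmFit and eBayes with a trend, two-sided, Benjamini-Hochberg over all genes tested). The call rule asked for a change beyond 2-fold with an adjusted p below 0.05. This scale understates the change of low genes. Single members were also given a two-sided exact permutation test. Unadjusted p-values are from the same fit. The fit was tested on simulated data. The named genes were the 10 members, up to 5 genes per list past an unadjusted p under 0.05 with the largest fold changes plus defining members, and the 10 genes nearest in profile. Marker lists were also read for erythroid cells, fibroblasts, endothelium, epithelium, basophils with mast cells, neutrophils and myeloid cells.

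The members and lists were chosen with earlier results of these data known. The reading of the line above on lines 495 to 882 was chosen after the data had been seen. In it a gene takes the value of the line before its name. The limma fit does not use names and served both readings. Alternatives were pseudocounts of 0.1 and 0.01, quantile normalization, median centring, no filter, a mean of at least 5 FPKM, robust variance, each library left out and the replicate number as a block. Figures were drawn with matplotlib 3.10.9.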

Additional observations from a re-analysis of the deposited data

How the results depend on the processing

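No member passed the call rule under any of the alternatives that changed 1 choice of the fit, nor with the line above, and 3 had an unadjusted p under 0.05 in place of 0. Over all genes 5 were called, against 0 without a filter and with pseudocounts of 0.1 and 0.01, 0 to 2 with each library left out, and 958 at an unadjusted p. The sources name no pairing of the libraries by replicate number. Deviations of same-numbered Con and Abx libraries correlated at -0.020, -0.029 and 0.010, so no shared deviation showed, which does not tell how the libraries were collected. With the replicate block 0 genes and 0 members were called. The median log2 fold change of the subunits, -1.50, was -2.34 and -2.67 with pseudocounts of 0.1 and 0.01 and -2.45 to -0.27 with each library left out. For the feedback genes the median, -0.66, was -1.19 and -1.26 with these pseudocounts and -0.37 without a filter, and it ranged from -1.07 to 0.11 with each library left out. Nfkbia turned from 2.32 to -1.07 on the line above, and Bcl3, at -0.95, ranged from -1.90 to 0.53 with each library left out, the latter without Abx library 2, and was -2.01 and -3.11 with the same pseudocounts. Those pseudocounts also moved the medians of the other inhibitors to -0.85 and -0.95, of the IKK list to -1.15 and -1.43 and of the receptors and ligands to -0.61 and -0.62. Centring and quantile normalization moved the median of all genes to -0.099 and 0.032 from -0.064. Depth is unknown, so values near 0 cannot be told from undetected ones.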

Other observations

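Several reported NF-kB targets and an early gene are also named in the stretch of shifted lines, and their readings differ. Icam1, an adhesion molecule, was at 2.50, 0 and 1.03 FPKM in Con, compared with 0.01, 0 and 0 FPKM in Abx on its own line, and at 87.3, 97.8 and 81.1 FPKM in Con, compared with 14.6, 28.4 and 71.5 FPKM in Abx on the line above. Cd69, an activation marker, was at 3.80, 0.02 and 1.21 FPKM in Con, compared with 0.05, 0.01 and 0.02 FPKM in Abx on its own line. On the line above it was at 74.9, 78.1 and 111 FPKM in Con, compared with 225, 145 and 171 FPKM in Abx, so the groups did not overlap and Abx was higher. Egr1 was at 0.01, 0 and 0 FPKM in Con on its own line and at 28.0, 29.7 and 55.1 FPKM in Con, compared with 146, 66.6 and 81.5 FPKM in Abx on the line above. Ier3 was lower in every Abx library on both lines, with log2 fold changes of -1.01 on its own line and -4.84 on the line above. Of the lines tested in the stretch 96.7% had an unadjusted p under 0.05 in the limma fit. Over all genes tested 8.73% lay lower without overlap and 8.49% higher. A lack of overlap on either line thus comes with the place of these genes.

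Markers of other cells that a lung digest can hold differed by list, from fibroblast markers near 0 to erythroid markers with the highest sums of these lists. The fibroblast list summed to 0.53 to 0.86 FPKM in Con and 0.58 to 2.81 FPKM in Abx. Of the endothelial list Cdh5, Kdr and Cldn5 stayed under 1 FPKM in every library, as did Sftpb, Krt18 and Cdh1 of the epithelial list and Csf1r, Itgam and Mrc1 of the myeloid list. The epithelial list summed to 23.8 to 41.3 FPKM in Con and 52.3 to 76.1 FPKM in Abx, the endothelial list to 5.10 to 10.7 and 6.14 to 21.1 FPKM, and the myeloid list to 115 to 364 and 176 to 369 FPKM. Ly6g, Mpo and Elane of the neutrophil list also stayed under 1 FPKM, and that list summed to 0.47 to 16.2 FPKM in Con and 0 to 75.3 FPKM in Abx. The list of mast cells and basophils summed to 328 to 434 FPKM in Con and 185 to 295 FPKM in Abx. The erythroid list summed to 2834 to 6338 FPKM in Con and 1313 to 3870 FPKM in Abx. These sums are over own lines. When genes of the stretch, Sftpc among them, took the line above, the epithelial list summed to 22.9 to 192 FPKM in Con and 4.38 to 29.4 FPKM in Abx, with overlapping ranges. The list of mast cells and basophils then summed to 365 to 573 and 177 to 296 FPKM, and the erythroid list to 6521 to 15983 and 2776 to 8625 FPKM.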
